A study of Mus musculus with 4 samples.

Results

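Beta cells of the mouse pancreatic islet, the cells that make and store insulin, were compared between the library labelled late db/db with intervention and the library labelled normal control. A barcode was taken as a beta cell when it held at least 1000 UMIs and 500 genes, at most 20% of its UMIs from mitochondrial (mt-) genes, at least 20% from the insulin genes Ins1 and Ins2, and under 5% from each of Gcg, Sst and Ppy. By this rule 2396 of 4629 control barcodes past the first 3 limits were beta cells (51.8%, exact 95% interval 50.3 to 53.2), and 3357 of 5115 in the intervention library (65.6%, 64.3 to 66.9). Together these are 5753 of 9744 barcodes of the 2 libraries, and 5753 of the 20845 barcodes past the limits in all 4 libraries of the study. The other 2 libraries, early db/db with 1595 beta cells and late db/db with 820 by the same rule, are given beside them as levels. The name of the early db/db matrix, as deposited, looks like that of another control library, while the sample's label says early db/db. The label was followed here, so early db/db values, and statements on all 3 db/db libraries, rest on that label.

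The study profiled single islet cells of mice by 10x Genomics 3′ RNA sequencing, with 1 library for each group. Mice were 98 days old by the labels, apart from early db/db at 70 days. db/db mice lack a working leptin receptor, eat in excess and become obese and diabetic. The protocol speaks of male mice and of db/db mice that were kept until they were hyperglycaemic and then allocated to groups. The genotype label is db/db on C57BL/KsJ for every library, the control among them, although the protocol names C57BL/6 mice as well. What the intervention was, and how many mice went into a library, is not stated here. Group, mice and library preparation, and perhaps background, differ together between the 2 libraries and cannot be told apart. Every ratio below thus compares 2 libraries. With 1 library a group there is no test, and the intervals cover counting error only.

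A beta cell takes up glucose, burns it in its mitochondria, closes potassium channels as ATP rises, and releases insulin from dense-core granules when calcium enters. Its identity rests on a small set of transcription factors, of which Mafa marks the mature state, and several glucose-sensing genes depend on them. In diabetic mice beta cells are known to lose these mature transcripts and to gain others, such as Aldh1a3, Cck and Gast, that are scarce in healthy adult beta cells. Such cells are often called dedifferentiated.

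The upstream promoter sequences of 4 genes that the results turn on are shown first. Cck and Gast encode peptide hormones of gut and brain, and Txnip encodes a glucose-responsive arrestin-fold protein. All of them had higher transcript levels in the intervention library. Slc2a2, which encodes the glucose transporter GLUT2, was lower. Each sequence is the stretch of 250 bases before the first start listed for the gene by RefSeq (GRCm38.p6), 5′ to 3′ on the gene's strand, with motif matches in capitals.

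Cck, chr9:121495695-121495944, minus strand: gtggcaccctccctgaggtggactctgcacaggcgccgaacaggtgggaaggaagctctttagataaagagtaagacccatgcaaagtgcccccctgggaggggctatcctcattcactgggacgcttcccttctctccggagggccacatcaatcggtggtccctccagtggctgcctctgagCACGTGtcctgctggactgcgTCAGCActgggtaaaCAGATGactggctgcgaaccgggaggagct

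Gast, chr11:100334157-100334406, plus strand: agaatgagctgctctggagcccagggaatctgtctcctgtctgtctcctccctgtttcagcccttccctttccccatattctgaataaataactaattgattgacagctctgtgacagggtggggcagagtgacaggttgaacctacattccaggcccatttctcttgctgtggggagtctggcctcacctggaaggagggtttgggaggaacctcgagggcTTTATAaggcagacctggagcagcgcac

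Txnip, chr3:96557707-96557956, plus strand: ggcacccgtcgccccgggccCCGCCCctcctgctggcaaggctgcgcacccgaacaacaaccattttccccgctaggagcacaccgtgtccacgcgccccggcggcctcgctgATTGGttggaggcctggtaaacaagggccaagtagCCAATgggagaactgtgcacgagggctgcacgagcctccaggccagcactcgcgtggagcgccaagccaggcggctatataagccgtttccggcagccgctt

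Slc2a2, chr3:28697653-28697902, plus strand: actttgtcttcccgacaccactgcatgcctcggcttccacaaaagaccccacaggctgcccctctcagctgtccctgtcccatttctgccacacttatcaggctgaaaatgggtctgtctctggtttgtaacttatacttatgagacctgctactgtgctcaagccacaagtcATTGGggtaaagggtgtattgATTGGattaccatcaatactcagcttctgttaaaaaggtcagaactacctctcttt

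The capitals mark matches on either strand to 10 motifs, none of which contains another. The motifs were the CRE (TGACGTCA), AP-1 (TGANTCA), the CACGTG E-box, the NeuroD-type E-box (CAGATG), the HNF1-type site (GTTAAT), the Maf-type site (TGCTGA), the TATA box (TATAAA), the CCAAT box (CCAAT), the GC box (GGGCGG) and the RFX-type site (GTTGCC). In the Cck window a CACGTG E-box begins 66 bases before the start, a Maf-type site on the other strand 45 bases before it and a NeuroD-type E-box 30 bases before it. These 3 motifs occur in 6.05%, 15.8% and 14.5% of the 27025 promoter windows of the table. The Gast window holds a TATA box letter run on the other strand 28 bases before the start (13.0% of all windows). The Txnip window holds CCAAT boxes 137 and 102 bases before the start and a GC box at 230 bases, and the Slc2a2 window holds CCAAT boxes at 77 and 56 bases (CCAAT in 34.5% and GC boxes in 32.9% of all windows). Among genes that were measured and matched to the table, the GC box stood in 62.4% of 3334, in 45.5% of the 134 that were at least 2-fold higher with the intervention and in 61.4% of the 236 that were at least 2-fold lower. The HNF1-type site stood in 3.96%, 8.21% and 6.36%, and the Maf-type site in 11.7%, 11.9% and 14.4%. These are matches of letters, not measured binding.

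The cells answered to their label in both libraries, as the rule requires of the insulin genes. Iapp, which encodes amylin and was not used by the rule, took 3.93% of control and 12.4% of intervention beta cell UMIs, beside 11.7% in early and 11.1% in late db/db. Ins1 took 17.9% and 10.7% (4.90% and 4.47% in early and late db/db), and Ins2 46.4% and 36.3% (43.7% and 39.0%). The median cell held 63.7% insulin UMIs in the control and 47.2% with the intervention. These hormone shares helped to choose the cells and are given as a description. Few cells lay near the limit: 5 control and 47 intervention cells held 20 to 22% insulin UMIs, and 9 and 49 barcodes held 18 to 20%. Another 52 control and 28 intervention barcodes had enough insulin but 5% or more of another hormone.

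Levels are CPM: the UMIs of a gene, summed over the beta cells of a library and scaled to 1 common total. The insulin genes, Iapp, Pyy, Gcg, Ppy, Sst and the mitochondrial genes were set aside from that total. This leaves 34468950 UMIs in the control and 49268219 in the intervention library, beside 30584725 in early and 28347379 in late db/db. The median beta cell held 49690 UMIs in the control and 42161 with the intervention, and 56238 and 88070.5 in early and late db/db. Ratios are given as log2 of intervention over control with an exact 95% interval, and a gene was counted at 2-fold or more. Of 30905 genes, 4158 entered: their level was 50 CPM or more in 1 of the 2 libraries, and both libraries together held 50 UMIs or more. A gene that is high in 1 library only enters through that library, so the number of called genes depends on this limit.

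Most beta cell genes were close in level, and a minority was far apart. At the 2-fold mark 167 genes were higher with the intervention (4.02% of those that entered) and 316 were lower (7.6%), or 483 either way (11.6%). Of these, 53 were at least 4-fold higher and 37 at least 4-fold lower, and 24 and 14 were past 8-fold. The median gene lay at -0.33, and 3083 genes were within 1.5-fold of it. This middle moves with the scaling: it was 0.33 with all UMIs as the denominator, where 196 genes were higher and 30 lower, and -0.01 with TMM factors, where 284 were higher and 127 lower. With all UMIs only 1254 genes reached the entry level. The genes higher with the intervention thus made up 34.6% of the called genes in the main scaling, 86.7% with all UMIs and 69.1% with TMM. Each scaling adds 1 amount to the log2 ratio of every gene, 0.41 with all UMIs and 0.28 with TMM. No higher gene can therefore fall under 2-fold with them, and 106 of the 316 lower genes stay at least 2-fold lower under all 3. Entry is taken from the main scaling in these statements. With all UMIs a gene can still lose its call because it no longer reaches the entry level.

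**Figure D1:**
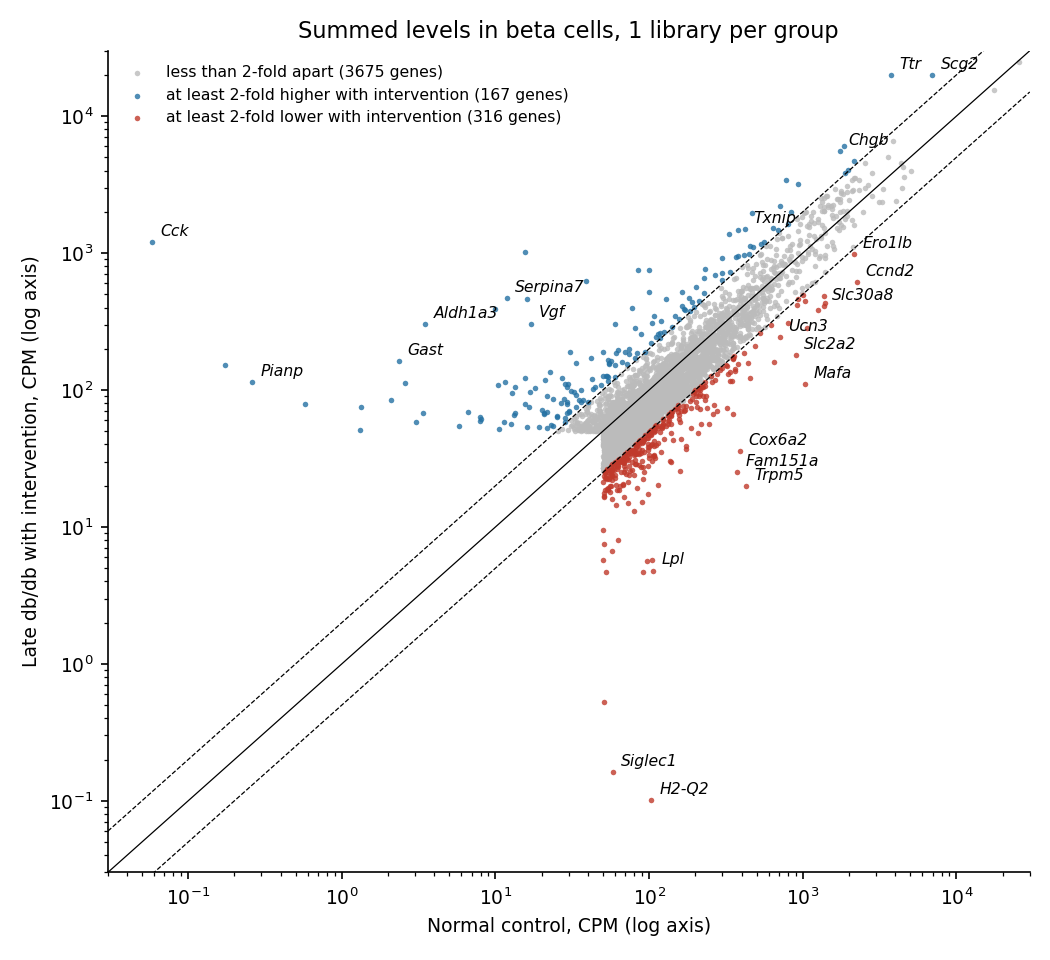
Summed level of each of the 4158 genes in beta cells, normal control on the horizontal axis and late db/db with intervention on the vertical axis, both in CPM on log axes, 1 library per group. The solid line marks equal levels and the dashed lines 2-fold; 167 genes (blue) lie on or above the upper dashed line, with Cck farthest from it, and 316 (red) on or below the lower one.

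Among the transcription factors of beta cells, Mafa stood apart. Mafa (chromosome 15, 75745490 to 75748228, GRCm38), which binds the insulin promoter and marks mature cells, had 1036 CPM in the control and 110.2 with the intervention, beside 30.7 in early and 39.3 in late db/db. The control lay above all 3 db/db libraries, and the intervention library lay above the other db/db libraries but far under the control. The intervention level was 9.40-fold lower than the control's, with a log2 ratio of -3.23 (-3.27 to -3.19). The exact Poisson interval of the level was 1026 to 1047 CPM in the control and 107 to 113 CPM with the intervention. Of the 22 factors listed, 13 entered, none was called higher and 2 lower, with a median of -0.59 beside -0.33 for all genes. With so few genes, 2 of 13 is near the 11.6% called either way among all genes.

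The second called factor was Neurod1, a basic helix-loop-helix factor that acts on the insulin gene. Its level was 353 CPM in the control and 169 with the intervention, beside 141 in early and 159 in late db/db, a log2 ratio of -1.07 (-1.11 to -1.03). This call is lost with TMM, at -0.79, and with all UMIs, at -0.66. Nkx6-1, a homeodomain factor of beta cell identity, had 582, 192, 228 and 332 CPM (control, early, late and intervention, the order kept below) and a log2 ratio of -0.81 (-0.84 to -0.78), short of 2-fold. Pdx1, the homeodomain factor needed to form the pancreas, had 237 CPM in the control, 163 with the intervention and a log2 ratio of -0.54. Nkx2-2 and Isl1, further homeodomain factors, lay at -0.88 and -0.67, and Pax6 at -0.50. Etv1, an ETS factor, was on the other side, with 51.8, 99.5, 107 and 100.4 CPM and a log2 ratio of 0.95.

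Genes of glucose entry and early glucose metabolism were lower or near the middle. Slc2a2, whose upstream sequence is shown above, had 898 CPM in the control and 179 with the intervention, beside 46.8 in early and 43.1 in late db/db. The intervention library again lay between the other db/db libraries and the control, at 5.02-fold under the control with a log2 ratio of -2.33 (-2.36 to -2.29). Gpd2, the mitochondrial glycerol-3-phosphate dehydrogenase that carries cytosolic reducing power to the respiratory chain, had 174, 23.1, 32.5 and 36.9 CPM and a log2 ratio of -2.24 (-2.31 to -2.16). Pcx, pyruvate carboxylase, had 91.4, 10.1, 14.3 and 22.4 CPM and a log2 ratio of -2.03 (-2.13 to -1.93). Both were low in all 3 db/db libraries. These 3 were the called members among 8 that entered of 15 listed, with none higher and a median of -0.73. Among all genes 7.6% were lower and 4.02% higher, and the median was -0.33.

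The remaining genes of glucose sensing did not reach 2-fold. G6pc2, the islet glucose-6-phosphatase subunit, had 1594, 599.7, 391 and 1067 CPM. Its log2 ratio was -0.58 (-0.60 to -0.56), and the intervention library lay nearer to the control than either other db/db library did. Of the 2 subunits of the ATP-sensitive potassium channel, Kcnj11 lay at -0.69 and Abcc8 at 0.12.

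Among receptors, the receptor of the gut hormone GIP was low. Gipr had 119 CPM in the control and 35.3 with the intervention, beside 19.7 in early and 25.2 in late db/db, a log2 ratio of -1.75 (-1.83 to -1.67), and all 3 db/db libraries lay under the control. It was the 1 called member of 6 that entered of 15 receptor and cAMP genes, a count that the 11.6% called either way among all genes would also give. Ffar1, a receptor for fatty acids, had 189, 38.6, 57.4 and 109 CPM and a log2 ratio of -0.79. Gnas, which encodes the stimulatory G protein, lay at 0.71. Glp1r, the receptor of GLP-1, stayed under the entry level in every library, at 7.25 CPM in the control and 7.92 with the intervention, and its log2 ratio of 0.13 (-0.11 to 0.36) had an interval that includes 0.

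Channel genes held 1 very low and 1 higher member. Trpm5, a calcium-activated cation channel known from taste cells and beta cells, had 429.5 CPM in the control and 19.8 with the intervention, beside 1.93 in early and 2.29 in late db/db. The log2 ratio of -4.44 (-4.53 to -4.35) made it 21.7-fold lower than in the control, although the intervention library held more than either other db/db library. Scn3a, a voltage-gated sodium channel, had 29.2, 55.2, 76.5 and 104 CPM and a log2 ratio of 1.84 (1.74 to 1.94), with the highest level in the intervention library. The other 9 of the 11 channel genes that entered, of 22 listed, lay between -0.69 (Cacna1d, an L-type calcium channel) and 0.26 (Scn9a). Among all genes 11.6% were called either way.

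In the machinery that docks and fuses granules, 4 of 22 genes that entered were lower (7.6% of all genes), none was higher (4.02% of all genes), and the median was -0.63. Of these 4 genes, 2 stay at least 2-fold lower under all 3 scalings, with entry taken from the main one. Sytl4, granuphilin, which docks insulin granules at the membrane, had 320.3 CPM in the control and 73.6 with the intervention, beside 32.8 in early and 28.5 in late db/db, with a log2 ratio of -2.12 (-2.18 to -2.07). Cadps, which primes granules for release, had 159, 46.4, 50.5 and 58.0 CPM and a log2 ratio of -1.45 (-1.52 to -1.39). Vamp3, a vesicle SNARE, had 57.3, 33.4, 26.7 and 28.6 CPM, just past 2-fold lower. This call is lost with TMM (-0.72) and with all UMIs (-0.60). Snap25 and Vamp2, the SNAREs of regulated insulin release, were near the middle or above it at -0.17 and -0.12. Rab3b, a granule GTPase, had 49.2, 133, 136 and 95.8 CPM and a log2 ratio of 0.96.

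Granule cargo and its processing enzymes went both ways. Of 19 genes listed, 18 entered, 8 were higher and 2 were lower, where 4.02% and 7.6% of all genes were. The list's median was 0.12 beside -0.33 for all genes. The higher ones were mostly granins. Vgf, a secreted granin-like peptide precursor, had 16.9 CPM in the control and 306 with the intervention, beside 220.0 in early and 254 in late db/db, a log2 ratio of 4.18 (4.06 to 4.30). Its 3 db/db libraries were close to each other and far above the control. Chgb, chromogranin B, had 1753, 6027, 7213 and 5561 CPM and a log2 ratio of 1.67 (1.65 to 1.68), and Scg2, secretogranin II, 6982, 13951, 15234 and 19839 CPM and 1.51. Nucb2, the precursor of nesfatin, had 469.8, 1517, 1631 and 1972 CPM and a log2 ratio of 2.07 (2.05 to 2.09). For Scg2, Nucb2 and Vgf the intervention library held the highest level of the 4.

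The other higher granule genes were Ptprn at 1.32, which encodes the granule membrane protein IA-2, Scg3 at 1.13, Pam at 1.10, which amidates peptides, and Scg5 at 1.03, the chaperone of a prohormone convertase. Slc30a8, the zinc transporter that loads insulin granules, was lower, with 1367 CPM in the control and 409 with the intervention, beside 136 in early and 142 in late db/db. Its log2 ratio was -1.74 (-1.77 to -1.72), and the intervention library lay well above the other db/db libraries. Sv2a, a vesicle protein, was lower at -1.25, a call that did not hold under all 3 scalings. The convertases Pcsk1 and Pcsk2 lay at -0.22 and 0.08, Cpe at -0.17 and Chga, chromogranin A, at -0.17.

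Genes known from immature or dedifferentiated beta cells were among the farthest apart. Of 14 listed, 8 entered, 5 were higher and 2 lower, where 4.02% and 7.6% of all genes were. This list includes genes that were chosen because earlier results of these data had them high in db/db. Cck (chr9:121489824-121495694, GRCm38) had 2 UMIs in all control beta cells and 59067 in the intervention library. Its level was 0.058 CPM in the control and 1199 with the intervention, beside 2252 in early and 1748 in late db/db. The log2 ratio was 14.33 (12.48 to 17.38), whose width comes from the 2 control UMIs, and every db/db library was high. Aldh1a3, a retinaldehyde dehydrogenase that makes retinoic acid, had 3.48 CPM in the control and 304 with the intervention, beside 369 in early and 422 in late db/db, a log2 ratio of 6.45 (6.19 to 6.72). Gast, gastrin, had 2.35, 330.4, 569.6 and 162 CPM and a log2 ratio of 6.10 (5.79 to 6.44), and here the intervention library was the lowest of the 3 db/db libraries.

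Serpina7, which encodes thyroxine-binding globulin, had 11.8, 646, 401 and 471 CPM and a log2 ratio of 5.32 (5.17 to 5.46). Cd81, a tetraspanin of the cell surface, had 76.9, 625, 414 and 395 CPM and a log2 ratio of 2.36 (2.30 to 2.42). On the lower side were Ucn3 and Rbp4. Ucn3, urocortin 3, a peptide of mature beta cells, had 708 CPM in the control and 244 with the intervention, beside 172 in early and 222 in late db/db, a log2 ratio of -1.54 (-1.57 to -1.51), with the intervention library barely above late db/db. Rbp4, the retinol carrier, had 219, 58.5, 47.8 and 56.3 CPM and a log2 ratio of -1.96. Neurog3 and Sox9, factors of endocrine and duct progenitors, did not enter, at 10.4 and 0.69 CPM with the intervention. None of the 19 measured genes that healthy beta cells are known to keep silent entered, and Ldha, the lactate dehydrogenase among them, had 1.45 CPM in the control and 0.67 with the intervention.

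**Figure D2:**
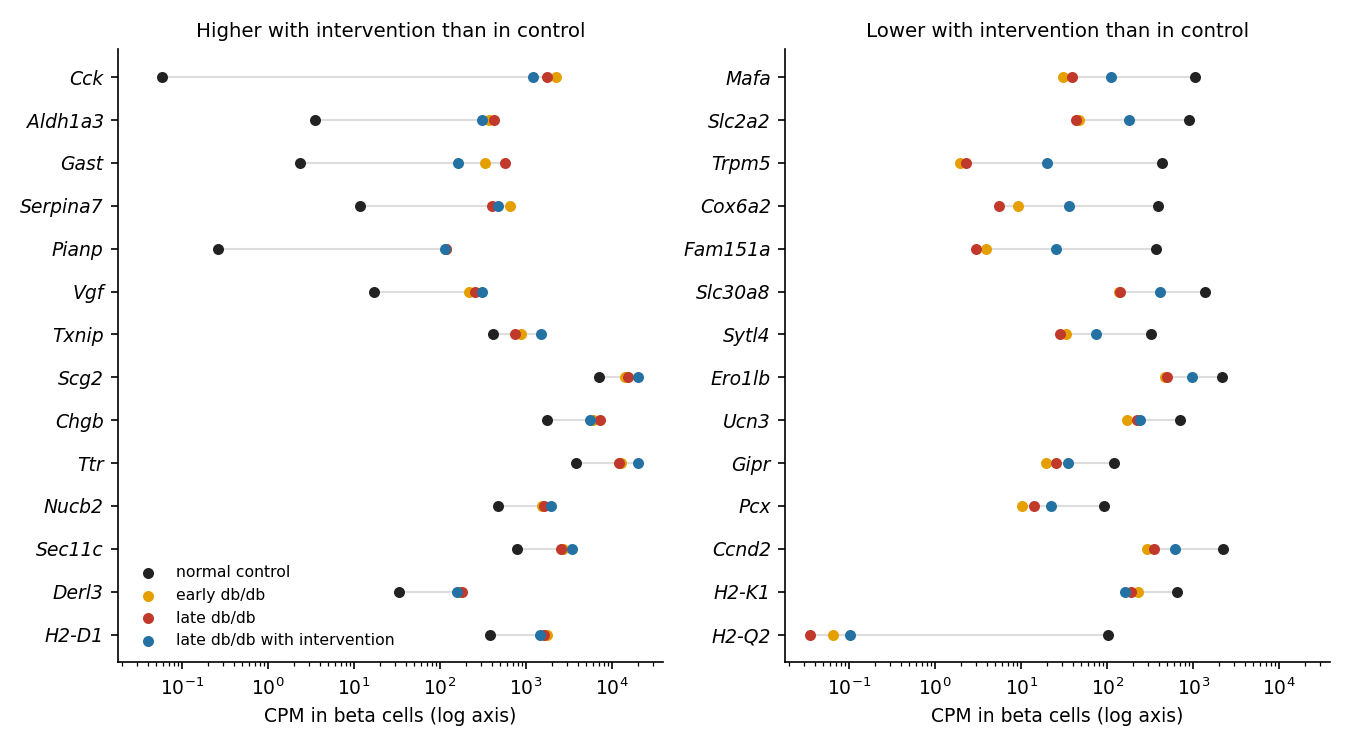
Summed levels of 28 genes in beta cells, in CPM on a log axis, with 1 point per library; the left panel shows 14 genes higher with the intervention than in the control and the right panel 14 that were lower. On the right the intervention points of Mafa, Slc2a2, Trpm5 and Slc30a8 lie between the late db/db and the control points, while on the left those of Vgf, Scg2, Ttr and Txnip lie beyond late db/db.

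Several other genes were far from the control in all 3 db/db libraries. Pianp, which encodes a membrane protein known from neurons, had 0.261 CPM in the control and 114 with the intervention, beside 116 in early and 119 in late db/db, and C1qtnf1, a secreted C1q-like protein, 0.58, 75.6, 85.9 and 78.9 CPM. Ache, acetylcholinesterase, had 3.37, 103, 89.8 and 68.2 CPM and a log2 ratio of 4.34 (4.07 to 4.62). Fam151a had 372 CPM in the control and 25.2 with the intervention, beside 3.89 in early and 2.96 in late db/db, a log2 ratio of -3.88 (-3.97 to -3.80). Cox6a2, the heart and muscle form of a cytochrome c oxidase subunit, had 391, 9.29, 5.57 and 36.0 CPM and a log2 ratio of -3.44 (-3.51 to -3.37). Lpl, lipoprotein lipase, had 106, 3.89, 8.82 and 4.79 CPM, and its intervention level was no nearer to the control than that of late db/db. Nnat, neuronatin, a small membrane protein of the endoplasmic reticulum, had 96.3, 2.42, 2.08 and 5.60 CPM and a log2 ratio of -4.10 (-4.29 to -3.93). Msln, mesothelin, Adam32 and Tmsb15b2 lay at -4.29, -3.50 and -4.18.

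Ttr, transthyretin, a carrier of thyroxine and retinol-binding protein that islets make in quantity, had the largest gain in CPM. It had 3774 CPM in the control and 19953 with the intervention, beside 12536 in early and 11926 in late db/db, a log2 ratio of 2.40 (2.39 to 2.41). Alpha cells of the same 2 libraries held 57138 and 57244 CPM of it, with no difference on the log2 scale (0.00). Endothelial cells, which do not make it, held 672 and 1494 CPM.

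Genes that translocate, fold and clear proteins in the endoplasmic reticulum were more often above the median gene than below it: 26 of 36 that entered. Of these 36, 7 were higher and 1 lower, where 4.02% and 7.6% of all genes were. The list's median was 0.17 beside -0.33 for all genes. Derl3, of the pathway that exports misfolded proteins for degradation, had 33.6 CPM in the control and 159 with the intervention, beside 169.9 in early and 182 in late db/db, a log2 ratio of 2.24 (2.15 to 2.33). Ssr4, a subunit of the translocon-associated complex, had 1845, 5231, 4598 and 6014 CPM and 1.70 (1.69 to 1.72), and Sec11c, a signal peptidase subunit outside the list, 777, 2690.1, 2579 and 3386 CPM and 2.12 (2.10 to 2.14). Creld2, Dnajc3, Sdf2l1, Edem2 and Sil1, which fold, glycan-check or exchange nucleotides on clients, lay at 1.67, 1.26, 1.24, 1.17 and 1.01. The central chaperone Hspa5, or BiP, had 1818, 3229, 3653 and 2029 CPM and a log2 ratio of 0.16, so it was highest in the other db/db libraries and near the control with the intervention. Xbp1 and Atf6, transcription factors of the unfolded protein response, lay at -0.68 and -0.81.

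Ero1lb, the endoplasmic reticulum oxidase rich in the pancreas, was the 1 lower member. It had 2161 CPM in the control and 981 with the intervention, beside 471 in early and 497 in late db/db, a log2 ratio of -1.14 (-1.16 to -1.12). The call is lost with TMM, at -0.86, with all UMIs, at -0.73, and at -0.95 when only cells with at least 40% insulin UMIs are kept. Prdx4, the peroxiredoxin of the same compartment, had 59.6, 258, 230.0 and 302 CPM and a log2 ratio of 2.34 (2.27 to 2.41). It and Gpx3, the secreted glutathione peroxidase, at 1.12 (1.06 to 1.17), were the 2 called genes among 18 antioxidant genes that entered. That share is close to the 11.6% of all genes called either way. Both were higher and none was lower, where 4.02% and 7.6% of all genes were. The list's median was 0.04 beside -0.33 for all genes, and 15 of the 18 lay above the latter. The rest of these enzymes, Sod1, Sod2 and Gpx1 among them, lay between -0.79 (Glrx) and 0.42 (Prdx5).

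Of 14 amino acid stress genes that entered, 1 was higher and 1 lower, and of 15 tRNA synthetases 1 was lower. Among all genes 4.02% were higher and 7.6% lower, or 11.6% either way. Of 14 integrated stress response genes that entered, Pycr1, of proline synthesis, was higher, with 42.3, 127, 99.1 and 120.3 CPM and a log2 ratio of 1.51 (1.43 to 1.59). Atf5, a stress-induced bZIP factor, was lower, with 335, 145, 109 and 135 CPM and -1.31 (-1.36 to -1.27), a call lost with all UMIs at -0.91. The effectors Atf4 and Ddit3 lay at -0.30 and -0.69. Among 15 tRNA synthetases 1, Gars, was lower at -1.12, also short of 2-fold under TMM (-0.84) and all UMIs (-0.71). The median of the synthetases was -0.64, below that of all genes, and 10 of the 15 lay under it.

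Txnip and Arrdc4, which cells induce together when glucose is high, were both higher. Txnip, an arrestin-fold protein that limits glucose uptake and binds thioredoxin, had 418 CPM in the control and 1497 with the intervention, beside 867 in early and 736 in late db/db, a log2 ratio of 1.84 (1.81 to 1.86). Its level with the intervention was the highest of the 4 libraries. Arrdc4 had 15.6, 61.2, 60.4 and 78.4 CPM and a log2 ratio of 2.33 (2.19 to 2.46). In alpha cells the Txnip levels were 341 and 364 CPM, a log2 difference of 0.09. Mlxipl, which encodes the glucose-sensing factor ChREBP, lay at -0.90 and had 298, 93.3, 102 and 160.2 CPM. Acly, the enzyme that makes cytosolic acetyl-CoA from citrate, was lower at -1.21 (-1.24 to -1.19), a call lost with TMM (-0.94) and all UMIs (-0.81).

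Other metabolic lists held few called genes. In glycolysis 1 of 9 genes that entered was lower, Pfkl, a phosphofructokinase, at -1.13, and Gapdh lay at -0.05. In fatty acid oxidation 1 of 11 was lower, Acadl, a long-chain acyl-CoA dehydrogenase, at -1.20. Hadh, the short-chain 3-hydroxyacyl-CoA dehydrogenase that also restrains insulin release, had 1065, 389.9, 333 and 573 CPM and a log2 ratio of -0.89 (-0.92 to -0.87). In cholesterol synthesis 1 of 11 was lower, the regulator Srebf1, at -1.18. These shares are close to the 11.6% called either way among all genes. Pfkl, Acadl and Srebf1 each fall short of 2-fold with TMM (-0.85, -0.92 and -0.90) and with all UMIs (-0.72, -0.79 and -0.77).

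Zinc and metal genes were split. Besides Slc30a8, the metallothioneins Mt1 and Mt2, which bind zinc and copper, were lower, at -1.69 and -1.76 (-1.82 to -1.71). Mt1 had 1392, 746, 537 and 432 CPM, with the lowest level in the intervention library. Mt3, another metallothionein, was higher, with 16.4, 157, 151 and 75.5 CPM and a log2 ratio of 2.20 (2.07 to 2.33). Slc39a11, a zinc importer, had 7.92, 63.7, 66.9 and 63.6 CPM and a log2 ratio of 3.01 (2.83 to 3.19). Of 11 genes that entered, 2 were higher and 3 lower, where 4.02% and 7.6% of all genes were.

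Ribosomal protein transcripts sat above the middle as a group without large differences. Of 80 that entered, 78 lay above the median of all genes, and the list's median was 0.43, but only Rplp0 reached 2-fold, at 1.03 (1.02 to 1.05). In alpha cells Rplp0 lay at 0.34. Nuclear genes of oxidative phosphorylation had a median of -0.10, with 1 of 76 higher (Ndufa1, 1.12) and 1 lower, Cox6a2. Of 33 proteasome genes 1 was lower, Psme1, a subunit of the PA28 activator, at -1.08, a call lost with TMM (-0.80) and all UMIs (-0.67). No gene was called among 21 lysosome and autophagy genes, 14 immediate early genes, 5 apoptosis genes and 3 NF-kappaB targets, where the background is 11.6% either way. Ctsl, a lysosomal protease, came nearest on the higher side, at 0.93. Dusp1 and Junb, stress-responsive early genes, lay at -0.96 and -0.95.

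Cyclin D2 was the cell cycle gene with the widest gap. Ccnd2, the main D-type cyclin of beta cells, had 2241 CPM in the control and 613 with the intervention, beside 292 in early and 351 in late db/db, a log2 ratio of -1.87 (-1.89 to -1.85). Ccnd1 had 316, 175, 248 and 151 CPM and lay at -1.06 (-1.11 to -1.02), which TMM (-0.79) and all UMIs (-0.66) bring under 2-fold. Cells with at least 2 UMIs over 5 cell cycle genes numbered 44 of 2396 in the control and 107 of 3357 with the intervention.

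Class I MHC genes, which show peptides to CD8 T cells, went in opposite directions within 1 family. H2-K1 had 646 CPM in the control and 159.7 with the intervention, beside 227 in early and 188 in late db/db, a log2 ratio of -2.02 (-2.05 to -1.98). H2-D1 had 377 CPM in the control and 1469 with the intervention, beside 1735 in early and 1629 in late db/db, a log2 ratio of 1.96 (1.93 to 1.99). H2-Q2 had 103, 0.0654, 0.0353 and 0.101 CPM and a log2 ratio of -9.99 (-11.61 to -8.76), with 3547 UMIs in the control and 5 with the intervention. B2m, the shared light chain, lay at -1.12, short of 2-fold with TMM (-0.84) and all UMIs (-0.71). H2-T23, a further class I gene, lay at -1.05 and is under 2-fold with both of these scalings too. Of 9 genes that entered, 1 was higher and 4 lower, where 4.02% and 7.6% of all genes were. Of the 4 lower genes, 2 stay at least 2-fold lower under all 3 scalings, with entry taken from the main one. In the main scaling the list's median lay 0.42 below that of all genes, but 0.160 above it with TMM and 0.188 above it with all UMIs. Alpha cells of the same libraries showed 452 and 127 CPM of H2-K1, 403 and 868 of H2-D1, and 118 and 0 of H2-Q2. In delta cells H2-K1 lay at -1.16, H2-D1 at 1.24 and H2-Q2 at -6.75. Reads of these near-identical genes can be split by the counting, which is not described here, so their values are uncertain. Of 28 interferon response genes 3 entered, and Lgals3bp, a secreted glycoprotein, was higher at 1.36 (1.33 to 1.39).

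**Figure D3:**
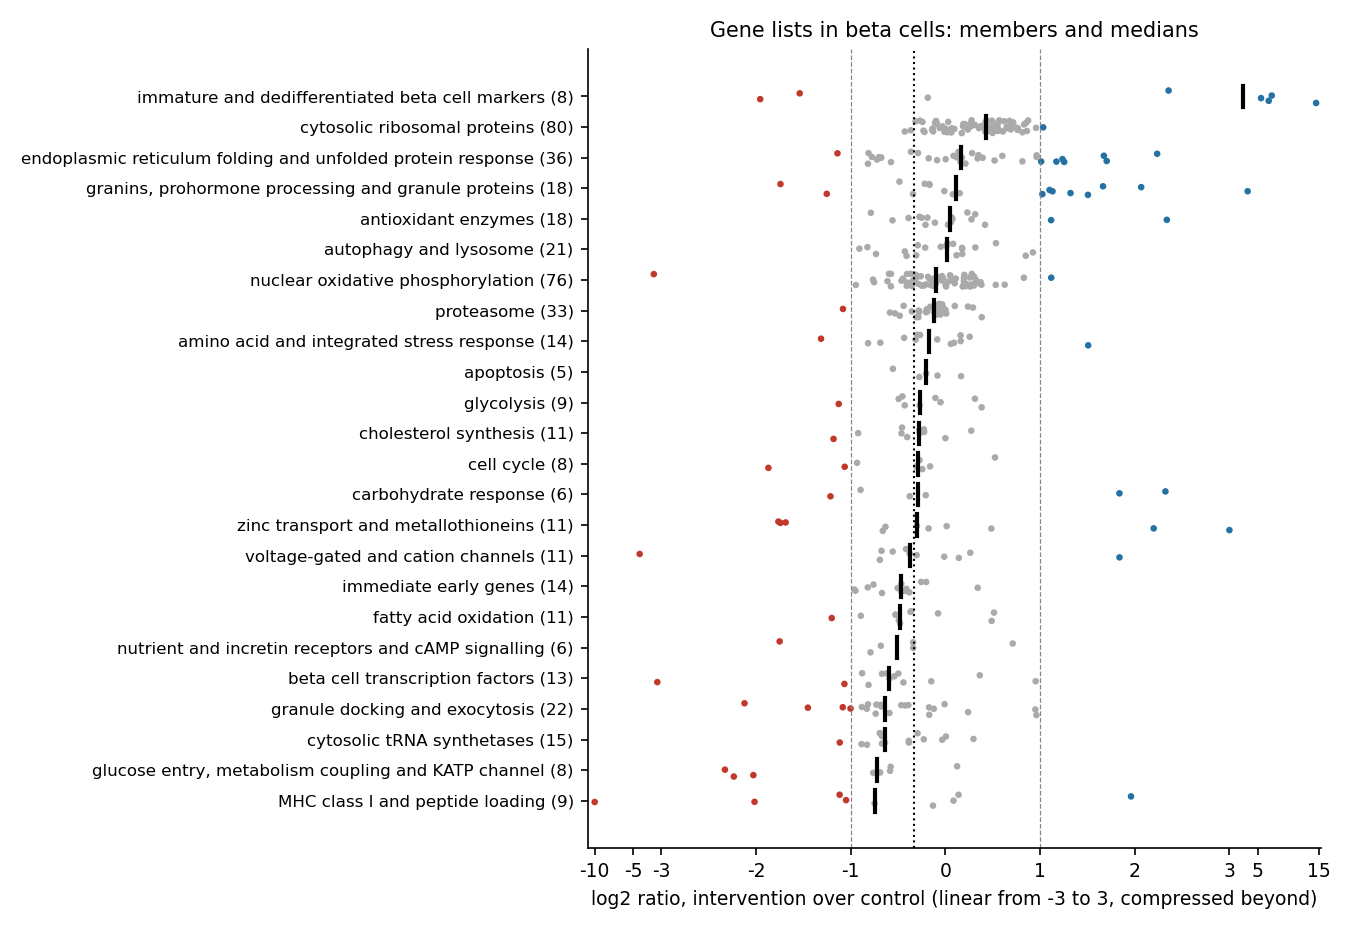
log2 ratio of intervention over control for the members that entered of 24 gene lists, 1 point per gene, with list medians as black bars, the number that entered in brackets, and the median of all genes as a dotted line at -0.33. Blue and red points are at least 2-fold higher or lower; the immature marker list has the highest median and the MHC class I list the lowest in this scaling (under TMM and all UMIs it lies above the median of all genes), and the axis is compressed beyond 3 either way.

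The share of beta cells with a transcript was compared after every cell was thinned to 3000 UMIs outside the hormone and mitochondrial genes. Cells with fewer were left out, which kept 2283 control and 3111 intervention cells, with 1448 of early and 786 of late db/db. A UMI of Mafa was found in 85.7% (84.2 to 87.1) of control and 23.3% (21.8 to 24.8) of intervention cells, beside 6.77% in early and 6.23% in late db/db. Without thinning the control and intervention shares were 94.9% and 50.1%. For Slc2a2 the shares were 87.1%, 12.8%, 10.8% and 35.8%, and 97.4% and 67.6% without thinning in control and intervention. Endothelial cells, which should lack both, showed Mafa in 2.75% and 1.30% of cells in control and intervention and Slc2a2 in 4.95% and 1.95%, so the beta cell shares lay well above this background in both libraries. The median depth of endothelial cells was 8465 and 4312 UMIs, and the thinned values rest on 182 and 154 of them.

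Slc30a8 was found in 96.6% of control and 61.8% of intervention beta cells, with 32.1% in late db/db. Trpm5 was found in 66.7% and 6.04%, with 0.636% in late db/db, Cox6a2 in 54.2% and 8.26%, with 0.763%, and Sytl4 in 59.4% and 20.1%, with 7.89%. Ucn3 had 83.3% and 47.1%, with 44.1% in late db/db. In each of these 5 genes the intervention share lay far under the control and above late db/db, by the least for Ucn3.

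Aldh1a3 was found in 0.701% (0.401 to 1.14) of control beta cells and 47.6% (45.8 to 49.4) of intervention cells, with 53.6% in early and 56.4% in late db/db. Without thinning, the first 2 were 2.21% and 77.1%. Cck was found in 0 of 2283 control cells, which allows a share of cells with a UMI at this depth of up to 0.131% and sets no limit on cells that express it, and in 46.8% (45.0 to 48.5) of intervention cells, with 50.2% in early and 44.7% in late db/db. In endothelial cells Aldh1a3 was found in 0.549% of control and 5.19% of intervention cells, and Cck in 0% and 14.9%. Macrophages of the intervention library had Cck in 14.3% of cells, so cells that should lack Cck held it in this library too, at a share below that of its beta cells. Gast was found in 0.788%, 34.2%, 41.9% and 19.7% of beta cells of the 4 libraries, and the intervention share was the lowest of the db/db libraries. Vgf was found in 4.16%, 40.7%, 47.2% and 51.0%.

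**Figure D4:**
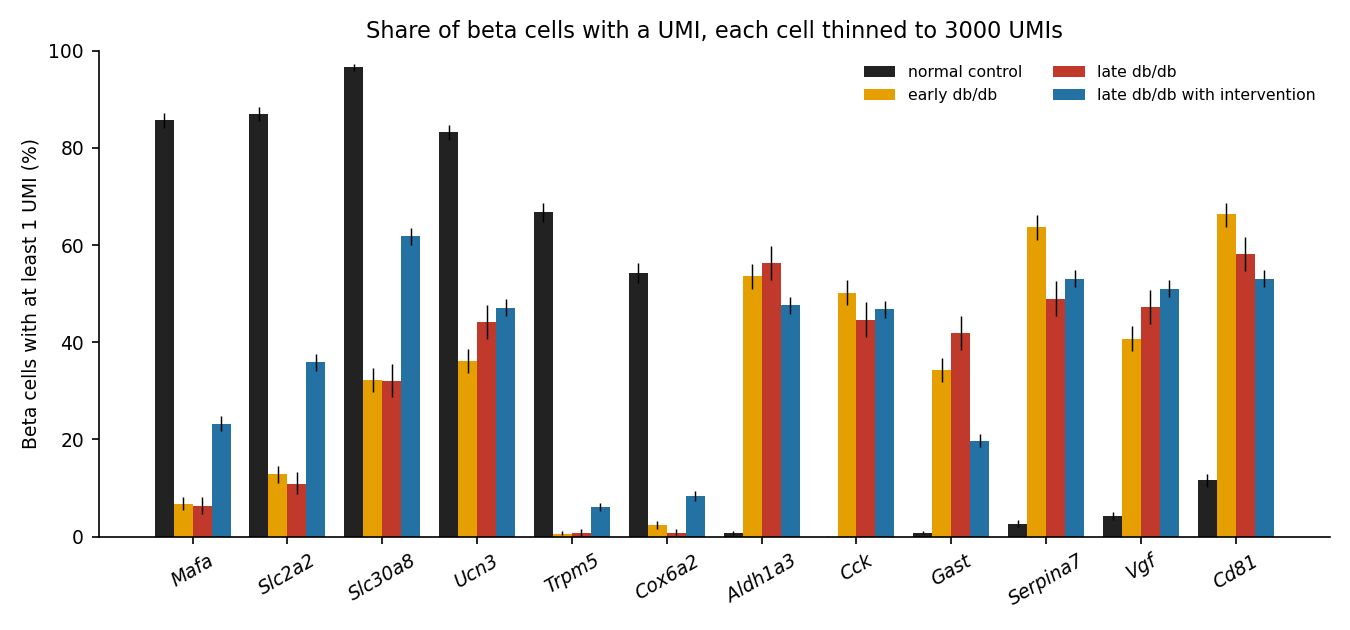
Percent of beta cells with at least 1 UMI of each gene after thinning every cell to 3000 UMIs, as bars from 0 with exact 95% intervals (counting error only), for the 4 libraries. Mafa, Slc2a2, Slc30a8, Ucn3, Trpm5 and Cox6a2 are highest in the control and in each case higher with the intervention than in late db/db; Aldh1a3, Cck, Gast, Serpina7, Vgf and Cd81 are lowest in the control.

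The level per cell shows how the differences spread over cells. Mafa had a median of 946 CPM per cell (quartiles 547 and 1416) in the control and a median of 23.8 CPM per cell (quartiles 0 and 162) with the intervention, while the median cell of early and late db/db had 0. For Slc2a2 the control had a median of 862 CPM per cell (quartiles 554 and 1216) and the intervention library a median of 98.7 CPM per cell (quartiles 0 and 283). Chgb had a median of 1442 CPM per cell (quartiles 1116 and 1933) in the control and a median of 4467 CPM per cell (quartiles 3166 and 6544) with the intervention, so the upper quartile of the control lay under the lower quartile of the intervention library. Txnip had a median of 249 CPM per cell (quartiles 98.9 and 488) and a median of 1492 CPM per cell (quartiles 934 and 2145). Cck was uneven among intervention cells, with a median of 113 CPM per cell (quartiles 0 and 1109.9) and a 90th percentile of 3326 CPM.

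To set whole cells side by side, the UMIs of 12 genes that earlier results had low in late db/db and of 12 that they had high were summed per cell, after thinning to 6000 UMIs (2127 control, 1410 early, 776 late and 2701 intervention cells). The low set was Mafa, Slc2a2, H2-Q2, Npy, Siglec1, Trpm5, Fam151a, Cox6a2, Adam32, Sytl4, Slc30a8 and Ero1lb. Control cells held a median of 44 UMIs of it, with a 10th percentile of 25. Intervention cells held a median of 8 (quartiles 5 and 15), and early and late db/db cells a median of 4. Some intervention cells reached the control range: 11.7% were at or above the control's 10th percentile, against 0.567% in early and 1.29% in late db/db. At or above the control median lay 1.33% of intervention cells. Ero1lb and Slc30a8 had the highest intervention levels of the set, 981 and 409 CPM, so the sum rests mostly on them. For genes found in the median control cell, the intervention shares at or above its count were 12.3% (Ero1lb), 8.96% (Sytl4), 6.70% (Slc30a8) and 5.70% (Slc2a2). For the rest of these genes they were 5.26% (Cox6a2), 2.81% (Fam151a), 2.15% (Trpm5) and 1.55% (Mafa).

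The high set was Cck, Gast, Aldh1a3, Tm4sf20, Pianp, Csn3, C1qtnf1, Ache, Slc5a10, Vgf, Cd81 and Gpx3. Control cells held a median of 0 UMIs of it and a 90th percentile of 3. Intervention cells held a median of 12, late db/db cells 17 and early db/db cells 19. Above the control's 90th percentile lay 94.4% of intervention, 97.7% of late and 98.2% of early db/db cells. The low set thus overlapped with the control in a small part of the intervention cells, and the high set in few of them. Both sets were picked on the late db/db and control libraries, so the control's distance from late db/db in them is fixed by that choice. The same control is the reference for the intervention cells, so their distance from it also rests in part on that choice.

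**Figure D5:**
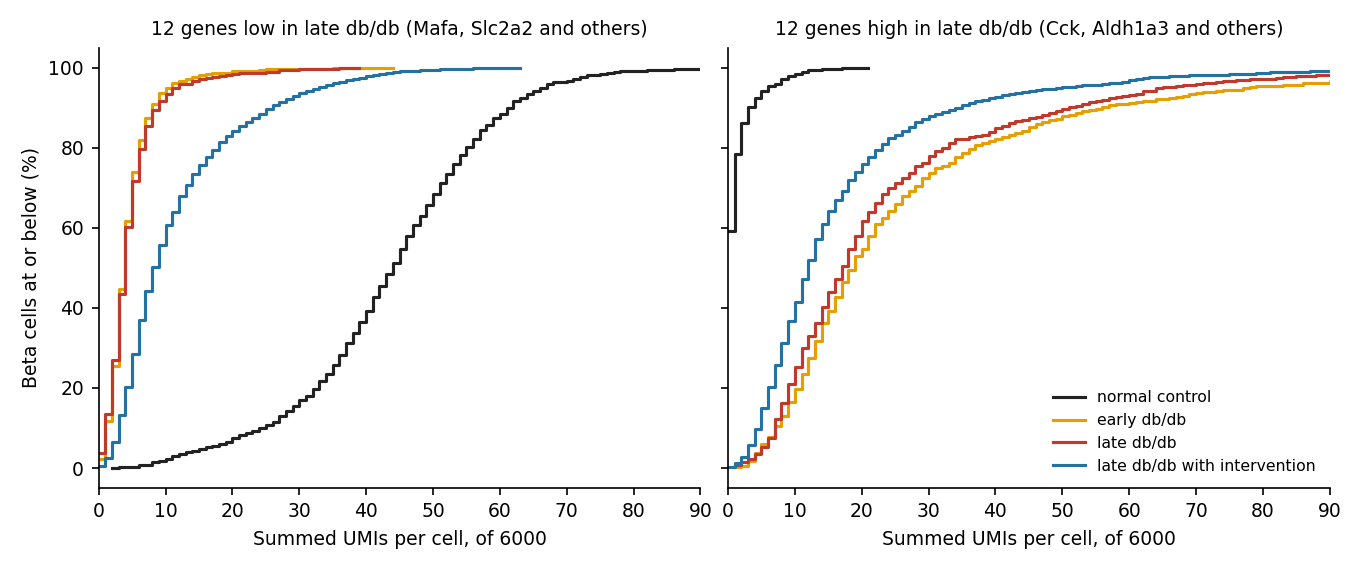
Cumulative share of beta cells (percent, vertical axis) by the summed UMIs per cell of 12 genes low in late db/db (left) and 12 genes high in it (right), each cell thinned to 6000 UMIs, 1 curve per library. On the left the intervention curve lies between the db/db curves and the control curve, with a median of 8 against 44 UMIs in the control; on the right it lies near the db/db curves, with a median of 12 against 0.

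Intervention cells that held both Mafa and Slc2a2 were counted in the same thinned cells. UMIs of both genes were found in 91.0% of control and 23.9% of intervention cells (646 cells), beside 4.40% in early and 4.90% in late db/db. Of these 646 cells, 55.9% also held Aldh1a3 and 49.7% Cck. Of the 1046 intervention cells with neither gene, 70.4% held Aldh1a3 and 59.8% Cck. Among the 1936 control cells with both genes, 0.671% held Aldh1a3. With the highest doublet scores removed, a choice made after the data were seen, the shares among 622 cells with both were 55.9% for Aldh1a3 and 50% for Cck. At the same depth, intervention cells of other classes held Aldh1a3 in 7.61% (alpha), 16.1% (endothelial) and 8.82% (macrophage) of cells, and Cck in 21.0%, 19.6% and 23.5%, with 381, 56 and 34 cells. The shares among beta cells with Mafa and Slc2a2 lay above these. The part of free RNA in the counts of single cells was not tested.

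Other cell classes of the same 2 libraries show which differences were also seen outside beta cells. At 2-fold, 1.41% of 3416 genes that entered were higher and 0.82% lower in alpha cells (1074 control and 561 intervention cells), and 1.32% and 0.782% of 4093 in delta cells (418 and 217). Endothelial cells (203 and 227) had 3.98% and 2.76% of 3847, and macrophages (85 and 89) 4.96% and 2.39% of 2804. Sums over fewer cells are shallower, so these shares are no ranking of classes. Gm10260, an unnamed predicted gene, had 0.174 CPM in the control and 152 with the intervention, beside 68.4 in early and 188 in late db/db in beta cells. In alpha cells it had 0.16 and 251 CPM and in delta cells 0.253 and 129.9, and it had no UMI in endothelial cells and macrophages of the control but 115 and 140.1 CPM with the intervention.

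6330403K07Rik, an uncharacterised transcript, had 15.5 CPM in the control and 1025 with the intervention, beside 1421 in early and 1208 in late db/db in beta cells and 0.16 and 202 CPM in alpha cells of control and intervention. Intervention endothelial cells held 176 CPM and macrophages 65.9, with no UMI in the control. Delta cells held 2.27 CPM in the control and 440 with the intervention, a log2 ratio of 7.60 (6.66 to 8.73). With the intervention the alpha cell level was thus close to that of endothelial cells, and the delta cell level was above both. The part of free RNA in these values was not tested. Pianp also differed in alpha cells (0.719 and 106 CPM). Rnaset2b, a ribonuclease gene with a near-identical copy, had 50.8, 0.392, 0.317 and 0.528 CPM in beta cells and no UMI in alpha, delta, endothelial or macrophage cells of the intervention library, against 606, 757, 163 and 91 UMIs in the control. By contrast Cd81 lay at 0.19 in alpha and 0.09 in delta cells, and Ccnd2 at -0.22 and -0.45, all under 2-fold. In endothelial cells Cd81 lay at -0.41, but Ccnd2 was past 2-fold lower, at -1.21 (-1.43 to -0.999), with 493 and 213 CPM. The difference between classes was not tested.

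Siglec1, a lectin best known from macrophages, and Npy, neuropeptide Y, were seen in control beta cells and almost not in db/db ones. Siglec1 had 58.2, 0.0981, 0.141 and 0.162 CPM and a log2 ratio of -8.49 (-9.70 to -7.50). Npy had 46.4, 0.0654, 0 and 0.183 CPM and did not enter. Its 1601 control UMIs came from 49 of 2396 cells, and its 9 intervention UMIs from 7 of 3357.

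RNA of other cells was looked for in the beta cell sums. Haemoglobin transcripts of red cells were higher with the intervention: Hbb-bs had 9.92 CPM in the control and 387 with the intervention, beside 99.2 in early and 295 in late db/db, and Hbb-bt, Hba-a1 and Hba-a2 lay at 5.83, 5.44 and 5.34. Hbb-bs was found in 2.98% of thinned control and 3.82% of late db/db beta cells. In the intervention library it was found in 42.8% of beta cells and also in 51.8% of alpha, 63.6% of endothelial and 58.7% of macrophage cells, against 2.56%, 4.40% and 1.39% of these in the control. Summed levels did not follow these shares in every class: the 5 red cell markers took 611 CPM in control and 456 in intervention alpha cells, and 14592 and 32326 CPM in endothelial cells. The 12 acinar markers summed to 160.5 CPM in control and 208.9 with the intervention, the 8 endothelial markers to 89.5 and 37.9, the 10 macrophage markers to 312.8 and 359, the 8 T and NK cell markers to 0.203 and 1.40, the 5 B cell markers to 51.4 and 8.0, the 8 duct markers to 929 and 1565, and the 4 delta cell markers to 242 and 163. Alpha cell markers summed to 4767 and 22990.1 CPM, of which Ttr made up most, while Gcg took 0.0841% and 0.0633% of beta cell UMIs. Of these 8 alpha cell markers 4 entered, with 3 higher, Ttr among them, and 1 lower. The part of RNA of other cells in the results was not tested. The control and the intervention library shared 13 cell barcodes, 3 of them among beta cells, and other pairs of libraries shared 8 to 21.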

How the data were processed

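Single islet cells of 4 mouse groups were measured, with 1 library each. The deposited matrices hold UMI counts per gene and cell barcode as whole numbers, for 30905 genes, written by Cell Ranger 3.0.0, per the file headers. The submitters' processing notes name mm10, CASAVA 1.8, Cell Ranger and Seurat, the last 2 without versions. The handling of reads that match several genes is not given here. The lowest barcode held 500 UMIs.

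UMI counts were summed over beta cells chosen by the rule above, scaled without mt- and 7 hormone genes, and compared at 2-fold. Ratio intervals are exact conditional binomial ones at 95%, levels have exact Poisson intervals, and shares of cells Clopper-Pearson intervals. A count of 0 allows a share of up to 3 counts of the total. The ratio code was tested on simulated data. Alternatives were all UMIs, TMM (edgeR 4.0.16), the median ratio, other limits on genes and cells, equal weight per cell and removal of the highest Scrublet scores (scanpy 1.11.5), since doublets were not removed in the main sums. Python 3.11.15 with numpy 2.4.6, scipy 1.17.1 and pandas 2.3.3 was used. A symbol listed more than once (65 symbols) was read from its first row. Gene positions are those of GENCODE M21, and 30766 identifiers had one. Other classes held under 20% insulin UMIs and 10% or more of Gcg (alpha) or Sst (delta), or 3 or more UMIs of at least 2 endothelial or macrophage markers.

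Named genes were the 12 in each direction with the interval farthest from 0 under all 3 scalings, the 6 with the largest difference in CPM, the 4 widest of each list, a panel of 20 genes and the 2 sets from late db/db. Mt1, Rbp4 and other list members beside these were picked after their values were seen. The members, the 29 gene lists and the panel were chosen with earlier results of these data known. A few members counted in the lists are not reported here by name.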

Additional observations from a re-analysis of the deposited data

Results flagged for a closer look

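Ero1lb, the endoplasmic reticulum oxidase, was lower with the intervention in beta cells, at -1.14 on the log2 scale, and higher in endothelial cells of the same 2 libraries, at 1.02 (0.49 to 1.55), with 30.5 CPM or 60 UMIs in the control and 62.0 CPM or 65 UMIs with the intervention. The lower bound of that interval is far under 2-fold, and the beta cell call is lost with TMM and with all UMIs. Other genes of endocrine cells were higher in the same endothelial sums, Chgb at 3.61, Chga at 1.64 and G6pc2 at 1.34, and their part in the value was not tested. It is listed because the 2 point values lay past 2-fold on opposite sides. The difference between the classes was not tested.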

How the results depend on the processing

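None of the 72 named genes that were called changed sign under any of the 12 alternatives. For several of these settings that outcome was fixed in advance. The rescalings add at most 0.41 to every log2 ratio, too little to turn the sign of a called gene. The other CPM minimums change which genes enter and leave every ratio as it was. At least 2-fold apart were 59 of them with all UMIs as denominator, 60 with TMM, 59 with the median ratio set to 1, and 69 to 72 under the others. The number of higher genes moved to 284 with TMM, 322 with the median ratio set to 1, 369 with a minimum of 10 CPM and 3622 with no CPM minimum. The number of lower genes moved to 30 with all UMIs, 127 with TMM, 113 with the median ratio set to 1, 820 with a minimum of 10 CPM and 2890 with no CPM minimum. Looser minimums let in more genes of few UMIs. The remaining alternatives gave 165 to 196 higher and 263 to 403 lower genes. Of the log2 ratios of named genes under an alternative, 333 moved outside their main counting interval and 530 stayed inside it. The 530 include the ratios that the other CPM minimums could not change. Of the shares of cells at other depths or without thinning, 31 moved and 5 stayed. Of the list medians relative to all genes, 283 stayed, 25 moved and 3 reversed. The reversals were all of MHC class I and peptide loading, from -0.42 to 0.188 with all UMIs, 0.160 with TMM and 0.149 with the median ratio set to 1. A scaling shifts every gene alike, so these list medians differ only through which genes reach the entry level. The cause of the other changes was not tested. Cells of 20000 to 80000 UMIs gave no ratio for Cck, which had 0 control UMIs there, and all UMIs gave no median for cholesterol synthesis. No paired analysis was possible because each group has 1 library. Ratios of genes with under 10 UMIs in 1 library, such as Cck and H2-Q2, have the widest intervals, and shares of cells depend on depth.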
